A study of Mus musculus with 4 samples.

Results

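The fibroblast growth factor (FGF) genes described here are 5 ligands (Fgf1, Fgf2, Fgf7, Fgf9 and Fgf18), 4 receptor tyrosine kinases (Fgfr1, Fgfr2, Fgfr3 and Fgfr4) and Fgfrl1, a receptor-like gene of the same family. They were taken by gene symbol. All probe sets that the probe-to-gene table assigned to them were used, which gave 24 probe sets for the 10 genes, 9 for the ligands and 15 for the receptors, of 45037 probe sets for 18193 genes in all. RNA of rib chondrocytes of C57BL6/J mice at postnatal day 5 was measured on 4 whole-genome 3' expression arrays, 1 for each genotype. Wild type mice (Xbp1 WT) carried neither change. XBP1 null mice (Xbp1 KO) had lost exon 2 of Xbp1 through a Cre recombinase driven by the Col2a1 promoter, which is active in the chondrocyte lineage, so that cells outside this lineage kept the gene. Matn3 mutant mice (Xbp1 WT Matn3 MUT) carried the V194D change in matrilin-3, a cartilage matrix protein that is retained in the endoplasmic reticulum in this mouse model of multiple epiphyseal dysplasia. Double mutant mice (Xbp1 KO Matn3 MUT) carried both. The RNA of each array had been pooled from 3 extractions, so there were no replicates. Each value below is the linear signal of a single array, in arbitrary units, and no difference between a pair of arrays has an error or a test.

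FGFs are secreted ligands that bind tyrosine kinase receptors together with heparan sulphate, and the activated receptor signals through the adaptor FRS2 to the RAS-ERK cascade and through phospholipase C gamma. In the growth plate FGF signalling through FGFR3 restrains the proliferation and maturation of chondrocytes, and activating mutations of FGFR3 are the cause of achondroplasia. FGF18 and FGF9, made largely by perichondrium and neighbouring tissues, are the best known ligands of this receptor in cartilage. XBP1 is a transcription factor of the unfolded protein response, the programme by which cells adjust to misfolded protein in the endoplasmic reticulum.

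Xbp1 was measured by 4 probe sets. The brightest of them read 8183 for wild type, 7877 for XBP1 null, 11403 for Matn3 mutant and 9548 for double mutant cells. Where its probes lie relative to exon 2 was not stated, so these signals do not check the deletion, and the V194D change was not read by the array either. The brightest Matn3 probe set read between 9945 and 10572 on the 4 arrays. The median signal of each array was 43.8. The 14 chondrocyte markers, among them Col2a1 and Acan of the cartilage matrix, were all bright, and their summed signal ran from 150162 in wild type to 175109 in double mutant cells. The XBP1 null array stood apart in markers of other cell types. Summed signal of 10 endothelial markers was 927 for wild type, 5377 for XBP1 null, 1171 for Matn3 mutant and 1818 for double mutant cells. All 10 were over 1.5-fold higher in XBP1 null than in wild type cells, as were 23.3% of all genes. In RNA of many cells, fewer cells of a type and less RNA per cell cannot be told apart.

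The first 250 bases upstream of an annotated start of Fgf18, Fgf2 and Fgfr3 are shown because these are the ligands above the median signal with the widest spread over the arrays and the receptor with the strongest value in the additive fit, and because the deleted factor binds DNA. They come from RefSeq on build GRCm38.p6 and read 5' to 3' on the strand of the gene. Capitals mark CCACG or ACGTG on either strand, short sequences found within the elements bound by XBP1.
Fgf18, chr11:33147401-33147650, minus strand: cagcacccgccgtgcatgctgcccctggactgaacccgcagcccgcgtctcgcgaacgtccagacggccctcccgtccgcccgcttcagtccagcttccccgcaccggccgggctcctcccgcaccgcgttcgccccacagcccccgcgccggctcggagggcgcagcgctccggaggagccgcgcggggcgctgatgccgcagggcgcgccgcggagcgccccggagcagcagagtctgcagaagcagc
Fgf2, chr3:37348403-37348652, plus strand: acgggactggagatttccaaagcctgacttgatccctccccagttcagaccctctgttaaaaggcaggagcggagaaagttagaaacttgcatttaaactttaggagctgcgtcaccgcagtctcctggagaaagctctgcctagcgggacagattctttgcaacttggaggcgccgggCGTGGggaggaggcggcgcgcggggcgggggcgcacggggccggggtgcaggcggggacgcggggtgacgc
Fgfr3, chr5:33721474-33721723, plus strand: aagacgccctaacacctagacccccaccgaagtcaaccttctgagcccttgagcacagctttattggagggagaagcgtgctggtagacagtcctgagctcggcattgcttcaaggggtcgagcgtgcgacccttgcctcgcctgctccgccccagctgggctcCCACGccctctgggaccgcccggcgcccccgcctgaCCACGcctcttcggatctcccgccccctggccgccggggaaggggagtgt
The Fgf18 window held neither sequence and was 77.2% G and C. The Fgf2 window held 1 CCACG, on the opposite strand, and the Fgfr3 window shown held 2. Fgfr3 has a second annotated start, whose window was 72.8% G and C and held 0 CCACG and 0 ACGTG. Of 32851 such windows of mouse genes, 28.3% held CCACG and 16.6% held ACGTG. Fuller elements were also searched for on both strands, the ER stress response element (CCAAT and CCACG spaced by 9 bases, in 0.113% of windows) and the UPR element core TGACGTGG (in 0.563%), which contains ACGTG and, on its other strand, CCACG. Neither was found in the 9 windows of the 8 FGF genes that had an entry and were searched. These matches describe the letters of the windows only.

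Fgf18 had the widest range among the brightest probe sets of the genes, and Fgf2 was next to it among those of the ligands above the array median. Both were highest in XBP1 null cells and lowest in wild type cells. Fgf18, a ligand of FGFR3 that is made in perichondrium, read 246.6 for wild type, 805.5 for XBP1 null, 330.9 for Matn3 mutant and 317.8 for double mutant cells on its only probe set. The XBP1 null array thus stood alone, at 3.27-fold over wild type and 2.54-fold over double mutant, and the other 3 arrays lay within 1.34-fold of each other. Relative to the sum of both single differences, the double mutant departed by -1.77 on the log2 scale. Fgf2, a ligand that is stored on heparan sulphate of the cartilage matrix, read 166.9 for wild type, 375.9 for XBP1 null, 274.2 for Matn3 mutant and 250.2 for double mutant cells on its only probe set. It was 2.25-fold higher in XBP1 null and 1.64-fold higher in Matn3 mutant than in wild type cells, and just over 1.5-fold lower in double mutant than in XBP1 null cells (log2 difference -0.59). Its departure from the sum of the single differences was -1.30.

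Fgf1, the acidic FGF, which like Fgf2 is released without a classical signal peptide, was lowest in wild type cells on both of its brighter probe sets. The brightest, 1450869_at, read 59.5 for wild type, 101.3 for XBP1 null, 98.2 for Matn3 mutant and 94.2 for double mutant cells. All 3 mutant arrays were near each other and the XBP1 null array was 1.70-fold and the Matn3 mutant array 1.65-fold over wild type. Probe set 1423136_at read 57.4, 124.4, 87.8 and 68.3 in the same order, so there the double mutant lay nearer to wild type. The dim probe set 1441042_at went the other way for the loss of XBP1, with 13.1 in wild type and 14.8 in Matn3 mutant against 4.42 in XBP1 null and 6.20 in double mutant cells.

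Fgf7, the keratinocyte growth factor, a mesenchymal ligand of an epithelial isoform of FGFR2, stayed within 1.5-fold. Its brighter probe set, 1438405_at, read 92.9 for wild type, 136.2 for XBP1 null, 126.0 for Matn3 mutant and 108.7 for double mutant cells, with wild type again the lowest. Its other probe set, 1422243_at, spanned 70.1 to 76.1, which is almost flat.

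Fgf9 was the 1 gene of the 10 whose brightest probe set lay below the median of all probe sets, and its probe sets disagreed. Probe set 1420795_at read 10.8 for wild type, 21.8 for XBP1 null, 34.5 for Matn3 mutant and 32.9 for double mutant cells. Probe set 1438718_at read 31.3, 19.8, 3.55 and 8.85 in that order, with wild type the highest. By the brightest probe set Fgf9 was 3.20-fold higher in Matn3 mutant than in wild type cells, and by the other one lower, with a log2 difference of -3.14. No direction is therefore given for Fgf9 as a gene, although it is counted below by its brightest probe set.

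Fgfr3, the receptor of proliferating chondrocytes, was highest in double mutant cells. Its brightest probe set, 1421841_at, read 3529 for wild type, 3682 for XBP1 null, 4868 for Matn3 mutant and 5911 for double mutant cells. Both arrays with the Matn3 mutation were above both arrays without it, and the double mutant was 1.61-fold over XBP1 null and 1.67-fold over wild type. The Matn3 mutant alone was 1.38-fold over wild type. The second probe set, 1425796_a_at, had the same lowest and highest array over a narrower range, with 156 for wild type, 168 for XBP1 null, 166 for Matn3 mutant and 206 for double mutant cells. There the Matn3 mutant lay just below XBP1 null, so the arrays did not divide by the Matn3 mutation.

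Fgfr1, which is expressed in hypertrophic chondrocytes and perichondrium, was lowest in wild type cells on both of its brighter probe sets. The brightest, 1424050_s_at, read 2320 for wild type, 3217 for XBP1 null, 3073 for Matn3 mutant and 2728 for double mutant cells, all within 1.5-fold. Probe set 1436551_at read 317.3, 582.1, 587.1 and 540.0 in that order, so all mutant arrays were over 1.5-fold above wild type there. Probe set 1425911_a_at went the other way and read 352.5 in wild type against 311.0, 231.9 and 279.4 in the mutants.

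Fgfr2, a receptor of mesenchymal condensations and perichondrium, stayed within 1.5-fold on its 2 brighter probe sets. The brightest, 1433489_s_at, read 1390 for wild type, 1620 for XBP1 null, 1765 for Matn3 mutant and 1895 for double mutant cells. Probe set 1420847_a_at read 672 in wild type and between 577 and 608 in the mutants, so that wild type was the highest there. The dimmest, 1443211_at, read 93.0 for wild type, 43.7 for XBP1 null, 51.5 for Matn3 mutant and 31.6 for double mutant cells.

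Fgfr4, a receptor best known from liver and developing muscle, was lower in both single mutants than in wild type cells. Its brightest probe set, 1418596_at, read 313.2 for wild type, 208.7 for XBP1 null, 210.5 for Matn3 mutant and 294.4 for double mutant cells. The single mutants lay together, and wild type and double mutant lay together. The log2 difference from wild type was -0.59 in XBP1 null and -0.57 in Matn3 mutant cells, so these values lie just past and just short of the fold counted here. The other 4 probe sets of Fgfr4 were all below the median of all probe sets, and none read over 39.2 on any array. They differed in direction. Probe set 1427776_a_at read 36.0 in wild type but 5.77, 2.58 and 11.2 on the mutant arrays in the order above. Probe set 1427846_x_at was lowest in wild type, with 14.62, 22.71, 17.99 and 39.18, and 1427777_x_at was highest in the double mutant, with 7.97, 8.86, 6.37 and 24.96. The dimmest, 1427845_at, read 1.60 or less on every array.

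Fgfrl1, a receptor-like protein without the kinase domain that is abundant in cartilage, was nearly even over the arrays. Its brightest probe set read 4521 for wild type, 4509 for XBP1 null, 4791 for Matn3 mutant and 5158 for double mutant cells. The second one spanned 1707 to 2099.

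**Figure D1:**
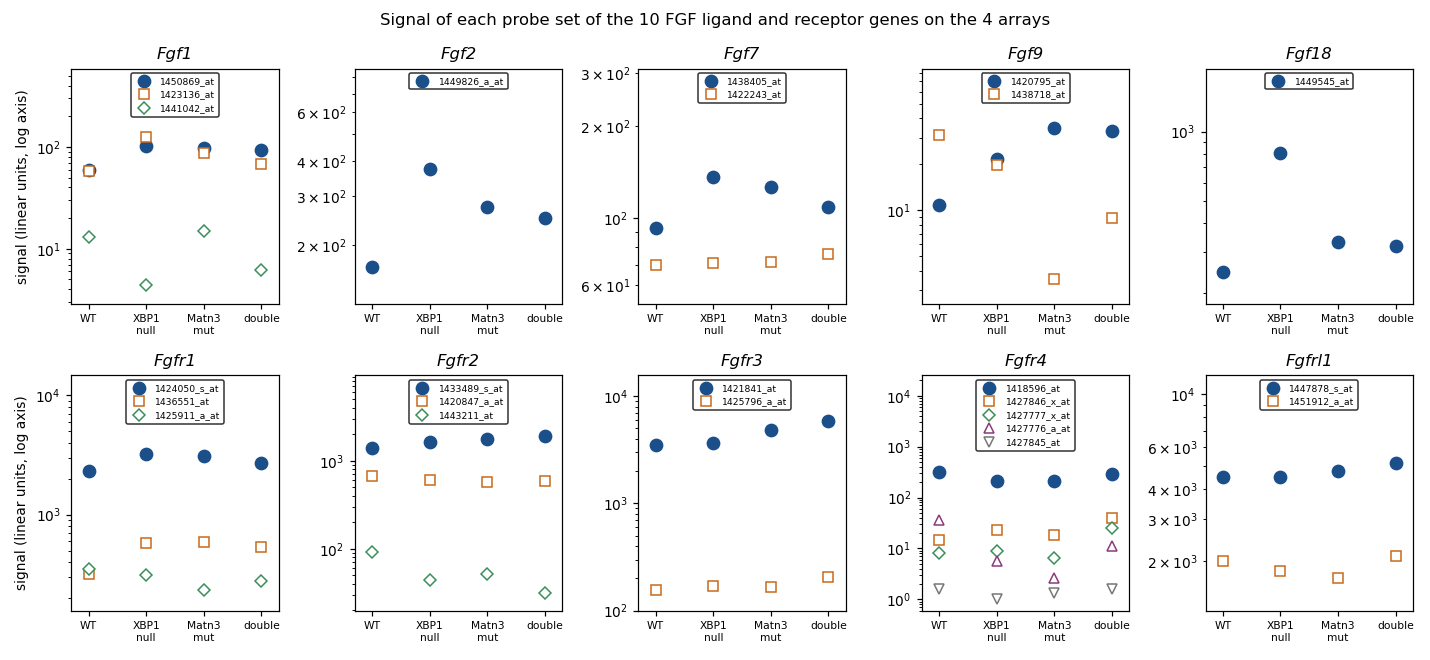
Linear signal (log axis) of each of the 24 probe sets on the 4 arrays (WT, wild type), with 1 panel for each gene and its own axis, where the filled circles are the brightest probe set and open symbols the others. Each point is 1 array of pooled RNA, so there are no error bars, and Fgf18 and Fgf2 can be seen to peak in XBP1 null cells and Fgfr3 in double mutant cells, while the probe sets of Fgf9 cross.

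By the brightest probe set, 8 of the 10 genes were lowest in wild type cells and the other 2 (Fgfr4 and Fgfrl1) in XBP1 null cells. The highest array was XBP1 null for 5 genes (Fgf1, Fgf2, Fgf7, Fgf18 and Fgfr1), double mutant for 3 (Fgfr2, Fgfr3 and Fgfrl1), Matn3 mutant for Fgf9 and wild type for Fgfr4. Over all genes, wild type was the lowest array for 38.7% and XBP1 null for 16.3%, and the highest was XBP1 null for 30.9%, double mutant for 29.8%, wild type for 25.4% and Matn3 mutant for 13.9%. Of the 8 genes with several probe sets, the probe sets differed in sign for 5 genes in each comparison of a single mutant with wild type and for 4 in each comparison with the double mutant. The same share was not computed over all genes, so these counts are not read as a trait of the FGF genes. In total, 17 of the 24 probe sets had a mean log2 no lower than the median of all probe sets, which corresponds to a signal of 41.6.

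The first comparison was of Matn3 mutant with wild type cells. Fgf1, Fgf2 and Fgf9 were over 1.5-fold higher, so 3 of the 10 genes were higher and 0 lower, and the median log2 difference of the 10 was 0.43. Over all 18193 genes, 21.2% were higher by this fold and 19.3% lower, and the median was 0.00. Among the 10982 genes at or above the median signal, where 9 of the 10 genes lay, the shares were 13.2% and 17.6%. The share of the FGF genes that were higher was near that of all genes.

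In XBP1 null against wild type cells, Fgf1, Fgf2, Fgf9 and Fgf18 were over 1.5-fold higher and Fgfr4 was just over 1.5-fold lower. By the brightest probe sets, all 4 genes that were higher are ligands, and the remaining ligand, Fgf7, was 1.47-fold higher. The other probe sets of these ligands were mixed. Fgf1 1423136_at was 2.17-fold higher and Fgf1 1441042_at 2.95-fold lower, Fgf7 1422243_at was 1.02-fold higher and Fgf9 1438718_at 1.58-fold lower. Some of the other probe sets of receptors also passed 1.5-fold, in both directions. Fgfr1 1436551_at was 1.83-fold and the dim Fgfr4 1427846_x_at 1.55-fold higher. Fgfr2 1443211_at was 2.13-fold lower, as were the dim Fgfr4 1427776_a_at (6.23-fold) and 1427845_at (1.54-fold). Over the 13 other FGF ligands, most of them dim, the median log2 difference was 0. The median log2 difference of the 10 genes was 0.51, against 0.09 over all genes. Among all genes 23.3% were higher and 11.5% lower, and among the brighter genes 18.8% and 5.82%.

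Between double mutant and Matn3 mutant cells, that is, with and without Xbp1 on the mutant Matn3 background, 0 of the 10 genes differed by over 1.5-fold in either direction. Their differences ran from -0.21 for Fgf7 to 0.48 for Fgfr4 on the log2 scale, with a median of -0.06 against 0.15 over all genes. All genes were higher in 17.4% and lower in 9.03%, and the brighter genes in 11.9% and 3%.

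In double mutant against XBP1 null cells, Fgf9 and Fgfr3 were over 1.5-fold higher and Fgf2 and Fgf18 over 1.5-fold lower. The median over the 10 genes was 0.04, with 0.00 over all genes. The background was 16.6% higher and 16.9% lower among all genes, and 7.38% and 10.5% among the brighter genes. The 4 comparisons share arrays, so that a high value on the XBP1 null array enters both the second and the fourth of them.

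**Figure D2:**
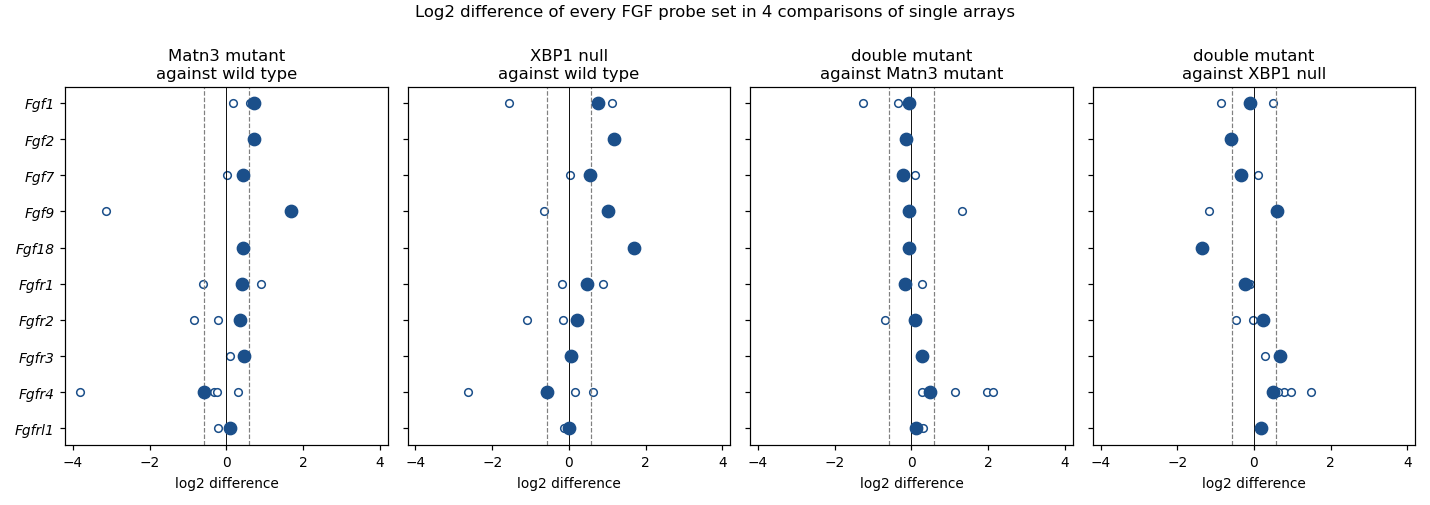
Log2 difference of all 24 probe sets in the 4 comparisons of single arrays, with the brightest probe set of a gene filled and the others open, and dashed lines at 1.5-fold. The filled points of the ligands lie to the right in XBP1 null against wild type cells, no filled point passes the dashed lines in double mutant against Matn3 mutant cells, and Fgf18 lies far left against XBP1 null.

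An additive model with a term for the Matn3 mutation and a term for the loss of XBP1, fitted by limma to all 4 arrays, left 1 residual degree of freedom. After Benjamini-Hochberg adjustment over 45037 probe sets it called 0 probe sets (0%) for either term. At an unadjusted p under 0.05 it called 7.51% of all probe sets for the Matn3 term and 4.56% for the XBP1 term. Of the 24 FGF probe sets, 1 passed the unadjusted threshold for the Matn3 term and 0 for the XBP1 term. It was Fgfr3 1421841_at, whose log2 effect was 0.57 with a standard error of 0.125 (limma, adjusted p = 0.635), and its signal was higher in both arrays with the mutation. The model assumes that both changes add up, while Fgf18 and Fgf2 departed from additive values by -1.77 and -1.30.

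Feedback genes of FGF-ERK signalling, most of them inhibitors that it induces, were mostly higher in XBP1 null than in wild type cells. The list also holds Flrt2 and Flrt3, which are not inhibitors like the others. Over 1.5-fold, 12 of the 13 listed genes were higher, Flrt3 among them, and 0 lower. Their median log2 difference was 0.83, where 23.3% of all genes were higher and 11.5% lower. Among the 11 that lay at or above the median signal, 10 were higher and 0 lower, beside 18.8% and 5.82% of the brighter genes. Dusp4, a nuclear phosphatase of ERK, read 201 for wild type, 758 for XBP1 null, 125 for Matn3 mutant and 65.4 for double mutant cells, so it stood high on the XBP1 null array alone. Dusp6, the cytosolic ERK phosphatase, had the same order of arrays, with 1772, 3024, 1413 and 1281. Spry4, of the Sprouty inhibitors, was instead low in wild type cells alone, and read 103.6 there against 399.4, 406.0 and 334.4 in XBP1 null, Matn3 mutant and double mutant cells. Spred1, a relative of the Sproutys, read 1805 for wild type, 3168 for XBP1 null, 4235 for Matn3 mutant and 4002 for double mutant cells. Il17rd, a membrane inhibitor known as Sef, read 84.1, 149, 29.6 and 85.4 in that order, lowest in the Matn3 mutant. In Matn3 mutant against wild type cells 7 were higher and 2 lower, where 21.2% and 19.3% of all genes were, and the median was 0.72. Between double mutant and Matn3 mutant cells 2 were higher in the double mutant and 4 lower, beside 17.4% and 9.03% of all genes, with a median of -0.08. Relative to XBP1 null cells, 0 were higher and 5 lower in the double mutant, beside 16.6% and 16.9% of all genes, with a median of -0.46.

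Enzymes that build or trim heparan sulphate, the co-factor of FGF binding, were also higher in XBP1 null than in wild type cells in 6 of 12 cases, with 0 lower and a median of 0.55, where 23.3% of all genes were higher and 11.5% lower. Sulf1, an extracellular enzyme that removes 6-O-sulphates and lowers FGF binding, read 71.4 for wild type, 371 for XBP1 null, 105 for Matn3 mutant and 127 for double mutant cells. Hs6st1, which adds 6-O-sulphates, read 187, 500, 375 and 267 in that order. Hs2st1, the 2-O-sulphotransferase, read 985, 2188, 1419 and 1437. All 3 peaked on the XBP1 null array, although Sulf1 and Hs6st1 have opposite actions. In double mutant against XBP1 null cells 5 of the 12 were lower and 1 higher, with 16.9% and 16.6% of all genes. In Matn3 mutant against wild type cells 2 were higher and 1 lower, with 21.2% and 19.3% of all genes. Relative to Matn3 mutant cells, 3 were higher and 1 lower in the double mutant, with 17.4% and 9.03% of all genes.

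Co-receptors and binding proteins were near even. Of 13, 2 were higher and 0 lower in XBP1 null against wild type cells, beside 23.3% and 11.5% of all genes. The one of these 2 above the median signal was the syndecan Sdc1. It read 1365 for wild type, 2446 for XBP1 null, 1596 for Matn3 mutant and 1751 for double mutant cells. The klotho co-receptors Kl and Klb, needed by endocrine FGFs, read under 10 on every array. Of 13 adaptors and kinases, 3 were higher in XBP1 null than in wild type cells and 0 lower, and the share that was higher was close to the 23.3% of all genes. Among them Rps6ka3, the ERK-activated kinase RSK2, read 653 for wild type, 1883 for XBP1 null, 1283 for Matn3 mutant and 1280 for double mutant cells. In Matn3 mutant against wild type cells 3 of the 13 were higher and 0 lower, where 21.2% of all genes were higher and 19.3% lower. All 13 lay at or above the median signal. Among the brighter genes 13.2% were higher and 17.6% lower in this comparison. In XBP1 null against wild type cells these shares were 18.8% and 5.82%.

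Transcriptional targets of FGF-ERK signalling were mostly within 1.5-fold. Some of them were very bright, such as Egr1 at 14471 in wild type cells, where the maximum of the array was 18520. Whether such signals were compressed was not tested. In XBP1 null against wild type cells 2 of 9 were higher, Etv4 and the cyclin Ccnd1, and 0 lower, with a median of 0.21. That share was near the 23.3% of all genes, and Etv4 was dim. Among the 8 targets at or above the median signal 1 was higher, beside 18.8% of the brighter genes. Ccnd1 read 897 for wild type, 1417 for XBP1 null, 1254 for Matn3 mutant and 1441 for double mutant cells. Etv5, an ETS factor that is a common readout of FGF signalling, spanned only 699 to 895. Of 9 growth plate genes linked to FGFR3, 1 was higher and 2 lower in this comparison, beside 23.3% and 11.5% of all genes. Snai1, a transcriptional repressor, read 261 in wild type and 243 in double mutant but 131 in XBP1 null and 104 in Matn3 mutant cells, so both single mutants were low. The cell cycle inhibitor Cdkn1a read 3342 for wild type, 6958 for XBP1 null, 5286 for Matn3 mutant and 7764 for double mutant cells, lowest in wild type.

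Most of the other ligands were dim, and of the 13 only Fgf21, an endocrine FGF that is induced by the integrated stress response, lay above the median of all probe sets. It read 141.8 for wild type, 140.4 for XBP1 null, 194.7 for Matn3 mutant and 599.2 for double mutant cells, and was thus high in the double mutant alone, at 3.08-fold over Matn3 mutant. Fgf8, Fgf15 and Fgf20 read under 1 on all arrays. The 13 were over 1.5-fold higher in 3 cases and lower in 1 in XBP1 null against wild type cells, where 23.3% of all genes were higher and 11.5% lower. The share of these ligands that was higher was near that of all genes. All 4 intracellular FGF homologous factors, which are not secreted and regulate sodium channels, were below the median.

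**Figure D3:**
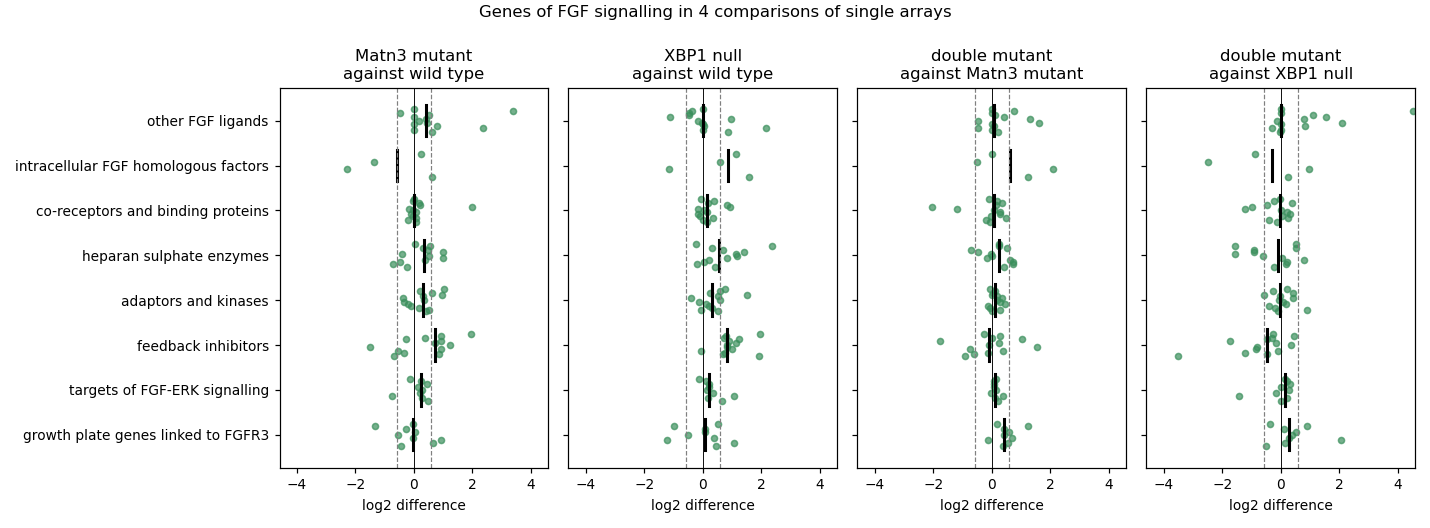
Log2 difference of the genes of 8 lists of FGF signalling in the 4 comparisons of single arrays, where each point is a gene by its brightest probe set, black bars are list medians and dashed lines mark 1.5-fold. The genes listed as feedback inhibitors, with Flrt2 and Flrt3 among them, lie right of the upper dashed line in XBP1 null against wild type cells in 12 of 13 cases. Their median lies left of 0 in double mutant against XBP1 null cells.

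Several lists of markers of other cell types were high on the XBP1 null array, as Fgf18 and Fgf2 were, though not all lists followed these ligands over the 4 arrays. Of all genes, 23.3% were over 1.5-fold higher in XBP1 null than in wild type cells and 11.5% lower. These shares stand beside each count of markers against wild type in this paragraph. Against wild type cells, all 10 endothelial markers were higher on that array, with a median log2 difference of 4.86. In double mutant against XBP1 null cells, 9 of them were over 1.5-fold lower, beside 16.9% of all genes. Emcn, an endothelial sialomucin, read 6.01 for wild type, 639 for XBP1 null, 58.7 for Matn3 mutant and 119 for double mutant cells. Pecam1, a defining surface protein of endothelium, read under 1 on the other 3 arrays and 87.7 on the XBP1 null array. Perichondrium and fibroblast markers were higher in 7 of 13 cases and lower in 0, and their summed signal was 69845 for wild type, 92857 for XBP1 null, 64336 for Matn3 mutant and 83855 for double mutant cells. Osteoblast markers summed to 230, 498, 202 and 247 in that order and were higher in 3 of 4 cases. Adipocyte markers summed to 711, 4783, 1070 and 1316 and were higher in 3 of 4. Most of the adipocyte sum was Fabp4 alone, with 493, 4285, 858 and 1154 in that order. Leukocyte markers were higher in 4 of 7 cases and summed to 2499, 6877, 5757 and 4777. Most of that sum was Cd14 alone, with 1961, 6133, 5115 and 4066 in the same order. Skeletal muscle markers were higher in 8 of 10 cases and lower in 1, though their sum was 3168 in wild type and 2613 in XBP1 null cells. Most of that sum was Tnnt3 alone, with 2780 in wild type and 1906 in XBP1 null cells. Erythroid markers summed to between 15.4 and 197. Chondrocyte markers were over 1.5-fold higher or lower in 0 of 14 cases. Some of them read near the highest signal of an array, such as Col9a1 at 17658 in wild type cells, where the maximum was 18520. Whether such signals were compressed was not tested. Hypertrophic markers were higher in 3 of 7 and lower in 2. The part of these cell types in the values of Fgf18, Fgf2, the feedback genes and the heparan sulphate enzymes was not tested.

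In Matn3 mutant against wild type cells, endothelial markers were higher in 6 of 10 cases and lower in 1, whereas perichondrium and fibroblast markers were higher in 1 of 13 and lower in 4. Hypertrophic chondrocyte markers were higher in 1 of 7 and lower in 4. Of all genes, 21.2% were higher and 19.3% lower in this comparison. Col10a1, the collagen of hypertrophic cartilage, read 831 in wild type and 1370 in XBP1 null but 250 in Matn3 mutant and 223 in double mutant cells. It was low on both arrays where the brightest Fgfr3 probe set was high. The second Fgfr3 probe set was high in the double mutant only. Against XBP1 null cells, 3 of the 7 hypertrophic markers were lower and 2 higher in double mutant cells, beside 16.9% and 16.6% of all genes. The part of this in the Fgfr3 values was not tested. Fgf18 was 1.34-fold higher in Matn3 mutant than in wild type cells. In double mutant against Matn3 mutant cells, 8 of the 10 endothelial and 7 of the 13 perichondrium and fibroblast markers were higher and 0 of either lower. Beside them, 17.4% of all genes were higher and 9.03% lower. Fgf18 differed by -0.06 and Fgf2 by -0.13 on the log2 scale in that comparison.

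**Figure D4:**
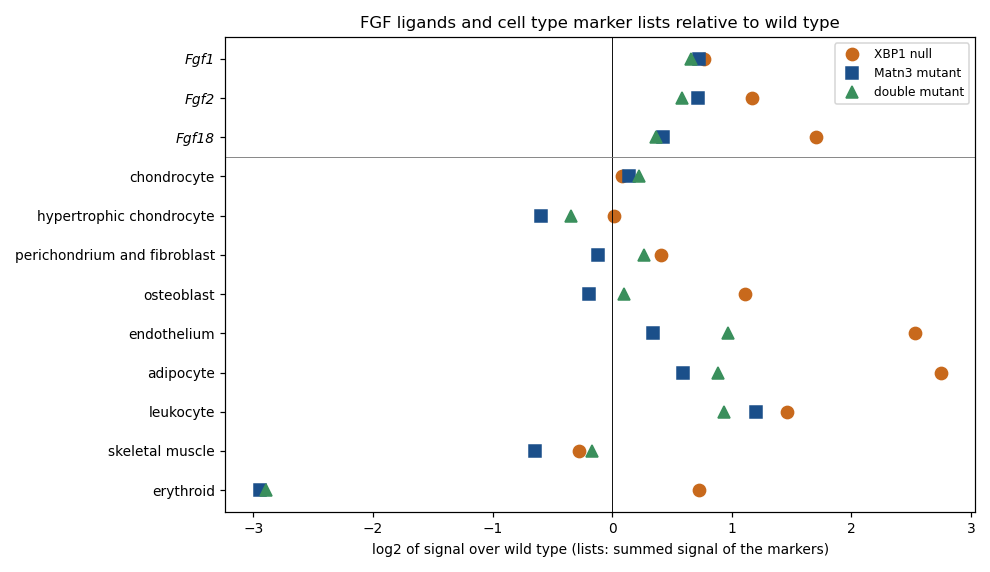
Log2 ratio over wild type of the brightest probe sets of Fgf1, Fgf2 and Fgf18 (above the grey line) and of the summed signal of 9 lists of cell type markers (below it), with 1 symbol for each mutant array and no error bars. On the XBP1 null array Fgf2, Fgf18 and the endothelial, adipocyte, leukocyte and osteoblast sums all lie more than 1 unit to the right. Most of the leukocyte sum is Cd14 and most of the adipocyte sum is Fabp4. The chondrocyte sum stays near 0 on all arrays.

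Genes of like pattern were sought for the 5 genes that were bright and spanned over 1.5-fold, by the root mean square difference of their centred log2 signals over the 4 arrays to 10981 other genes. The 3 nearest to Fgf18 were Gucy1b1, a subunit of soluble guanylate cyclase, Fhad1 and the sphingosine phosphate transporter Spns2, at distances of 0.0393, 0.0463 and 0.0840. Nearest to Fgf2 were Radil, Samd8 and Rasa2, from 0.0236 to 0.0358. Nearest to Fgf1 were Tpd52, Kctd9 and Mob1a, from 0.00737 to 0.0182. Nearest to Fgfr3 were Scpep1, Serinc5 and Tmem38b, from 0.0290 to 0.0319, and nearest to Fgfr4 were Efs, AI837181 and Phf21a, from 0.0251 to 0.0373. The distances rest on 4 arrays and are a description only.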

How the data were processed

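RNA was hybridized to 1 Affymetrix Mouse430_2 array for each of the 4 genotypes. The authors deposited linear signal intensity values for 45037 probe sets. Their method of summarization, and any normalization, was not given in the sources used. The study's methods name Microarray Suite 5 for control hybridizations and PPLR with a 1.5-fold limit for differential expression, and PPLR was not applied because it needs errors of single probes. Signals under 1 were set to 1 and taken as log2 without further scaling. For each gene the brightest probe set by mean log2 was taken, among the 34945 that name 1 gene, and all FGF probe sets were also read singly. Differences over 1.5-fold were counted in 4 comparisons. The additive model was fitted in limma 3.58.1 (R 4.3.3, eBayes with trend) and tested on simulated data. Tables were made with Python 3.11.15 and pandas 2.3.3. The alternatives were centring, quantile normalization, a higher floor, a median of the probe sets of a gene, omission of cross-hybridizing probe sets, 2-fold, bright genes only, and eBayes without trend. The genes and lists were chosen with earlier results of these data known. Named were all FGF genes and up to 4 bright genes for each list and comparison by size of difference, and genes of like pattern. A few genes outside this rule were named after their values were seen (Etv4, Flrt2, Kl, Klb, Pecam1 and the dim ligands). Of the listed genes, those without a probe set of their own, such as Frs2 and Runx2, were not analysed here. The number of arrays limits the precision of every value.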

Additional observations from a re-analysis of the deposited data

Results flagged for a closer look

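The difference that went with one change had opposite signs on the other gene's wild type and mutant backgrounds for 16 of the 24 FGF probe sets for the loss of XBP1 and for 12 of the 24 for the Matn3 mutation. In 5 of these cases the difference was over 1.5-fold in both directions, and only those are given here. Neither share was computed over all probe sets, so these counts are not read as a trait of the FGF genes. With 1 array per genotype, none of these differences was tested. For Fgf2 1449826_a_at the Matn3 mutation went with a log2 difference of 0.72 in mice with Xbp1 and of -0.59 in mice without it, and Fgf1 1423136_at had 0.61 and -0.86. For the Fgfr4 probe set 1427776_a_at, which is dim, the same values were -3.81 and 0.96. The loss of XBP1 went with a log2 difference of -2.64 for Fgfr4 1427776_a_at on wild type Matn3 and of 2.12 on mutant Matn3. For the dim Fgf9 probe set 1438718_at it went with -0.66 and 1.32.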

How the results depend on the processing

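Alternatives were run for the counts, medians and single differences of the 10 genes. Of 200 single differences under them, 186 kept their sign, and 174 of these also their side of 1.5-fold. Of the 14 that did not keep their sign, 2 had been past 1.5-fold. Taking the median over probe sets turned the sign of Fgf9, to -0.73 in Matn3 mutant against wild type and to -0.28 in double mutant against XBP1 null cells. In Matn3 mutant against wild type cells it gave 2 genes lower and a median of 0.26, and 2-fold left 1 higher. In XBP1 null against wild type cells 0 genes were lower after centring and at 2-fold, since Fgfr4 was at -0.58, and the median was 0.40 after quantile normalization, 0.23 over probe sets and 0.66 without probe sets that can cross-hybridize. Without the latter, 5 genes were higher, with the receptor Fgfr1 among them at 0.88. By the median over probe sets 4 were higher, with Fgfr1 at 0.72 among them and Fgf9 at 0.18 not. In double mutant against Matn3 mutant cells 2 genes were higher with the median over probe sets. In double mutant against XBP1 null cells 1 gene was higher after quantile normalization, with the median over probe sets and among bright genes, and 0 at 2-fold. There, 1 was lower after quantile normalization and at 2-fold, and the median was -0.11 over probe sets, -0.070 without cross-hybridizing ones and -0.10 among bright genes. Quantile normalization moved the median of all genes in XBP1 null against wild type cells from 0.09 to 0.00. Without trend, limma gave 0 FGF probe sets for the Matn3 term and 2 for the XBP1 term at an unadjusted p under 0.05. In a separate fit with trend to bright probe sets only, it called 13 for the Matn3 term after adjustment, none of them of an FGF gene. No paired analysis was possible because each group holds 1 array. The causes of these moves were not tested.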
